A study of Mus musculus with 6 samples.

Results

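De novo fatty acid synthesis turns citrate, and so sugar carbon, into palmitate in the cytosol. Its core enzymes were described here through 8 genes: the mitochondrial citrate carrier gene Slc25a1, the genes Acly, Acss2 and Aacs of the enzymes that make acetyl-CoA or acetoacetyl-CoA in the cytosol, the carboxylase genes Acaca and Acacb, the fatty acid synthase gene Fasn, and Thrsp (Spot 14), whose protein is tied to lipogenesis. The members were chosen by gene name among the non-control probes of the arrays, which gave 17 of 41174 probes, and 16 of these 17 were well above background on at least 3 arrays and were tested. Expression was measured in abdominal white adipose tissue (WAT) of female C57/BL6 mice at 30 wk of age. The hNAG-1 mice carry a transgene for human NAG-1 (GDF15), a secreted protein of the TGF-beta superfamily, and were set against wild-type (WT) mice without it. Each of the 3 hNAG-1 arrays and each of the 3 WT arrays held Cy3-labelled RNA pooled from 2 mice, so that 6 mice of each genotype were sampled. The hNAG-1 mice came from a single transgenic line, and the methods describe the transgene as active in most tissues and strongly so in WAT, hence its effect on fat cells cannot be told apart from its effects elsewhere in the body. The diet of these mice was not given in the sources used here.

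Citrate leaves the mitochondrion through the carrier encoded by Slc25a1 and is split by ATP-citrate lyase (Acly) into acetyl-CoA and oxaloacetate. Acss2 makes acetyl-CoA from free acetate, and Aacs activates the ketone body acetoacetate for lipid synthesis. Acetyl-CoA carboxylase makes malonyl-CoA. The enzyme encoded by Acaca lies in the cytosol and feeds fatty acid synthase, and that encoded by Acacb is bound to the outer mitochondrial membrane, where its malonyl-CoA inhibits the entry of fatty acids for oxidation. Fatty acid synthase (Fasn) then builds palmitate with NADPH as reductant. In liver and fat several genes of this pathway are known targets of the transcription factors SREBP-1c (Srebf1) or ChREBP (Mlxipl), which respond to insulin and to sugar.

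The sequences before the transcript starts of these genes are shown because the genes were all higher in hNAG-1 mice and belong to the same pathway. RefSeq gives a window for each of the 8 genes (assembly GRCm38.p6), and 250 bases upstream of the start were searched on both strands for 6 motifs. Windows of 4 members follow, each read 5′ to 3′ on the strand of its gene, with matches to the sterol response element core TCANNCCAC, the CCAAT box (CCAAT), the GC box (GGGCGG) and the E-box CACGTG in capitals on either strand.
Acly, chr11:100528001-100528250, minus strand: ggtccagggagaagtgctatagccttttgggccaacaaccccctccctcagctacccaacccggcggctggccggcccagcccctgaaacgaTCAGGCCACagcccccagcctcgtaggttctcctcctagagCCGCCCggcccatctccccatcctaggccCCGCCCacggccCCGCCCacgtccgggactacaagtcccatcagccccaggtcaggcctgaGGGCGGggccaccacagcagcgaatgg
Slc25a1, chr16:17928220-17928469, minus strand: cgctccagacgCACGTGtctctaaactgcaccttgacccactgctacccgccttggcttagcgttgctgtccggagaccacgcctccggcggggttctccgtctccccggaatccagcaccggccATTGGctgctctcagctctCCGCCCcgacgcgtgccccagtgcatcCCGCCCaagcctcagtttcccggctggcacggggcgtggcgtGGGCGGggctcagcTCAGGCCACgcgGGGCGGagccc
Fasn, chr11:120824548-120824797, minus strand: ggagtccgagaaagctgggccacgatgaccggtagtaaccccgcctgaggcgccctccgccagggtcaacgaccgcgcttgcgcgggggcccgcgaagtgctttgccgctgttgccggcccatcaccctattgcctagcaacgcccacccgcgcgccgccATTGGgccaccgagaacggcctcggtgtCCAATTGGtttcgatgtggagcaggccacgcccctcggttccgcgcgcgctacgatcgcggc
Thrsp, chr7:97417551-97417800, minus strand: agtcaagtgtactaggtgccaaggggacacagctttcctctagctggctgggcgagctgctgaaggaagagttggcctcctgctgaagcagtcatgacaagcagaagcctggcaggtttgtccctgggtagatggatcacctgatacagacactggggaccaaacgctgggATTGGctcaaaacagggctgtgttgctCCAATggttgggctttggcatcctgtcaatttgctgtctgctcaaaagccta

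The sterol response element core, to which SREBP proteins bind, was found in the windows of Acly, Acacb and Slc25a1, that is in 3 of 8 members, against 3.519% of 32851 windows of all genes. It lay at bases -158 to -150 in Acly and at -23 to -15 in Slc25a1. The CCAAT box, bound by NF-Y, was in 5 of 8 members, against 33.85% of all windows, and it occurred 3 times in Fasn, where 2 of the matches overlap in the run of bases -62 to -55, and 2 times in Thrsp. The GC box, bound by Sp1, was in 3 of 8 members (4 matches each in Acly, Slc25a1 and Acss2), against 32.742% of all windows. The E-box was in the window of Slc25a1, against 6.021% of all windows. The carbohydrate response element as an exact pair of E-boxes matched 0 windows of any gene, so that search could not set members apart from other genes. The DR4 pair of half-sites matched 0.015% of all windows and 0 members. The windows of Acly, Slc25a1 and Fasn held 68.8%, 70.0% and 69.2% G or C, against a median of 52.4% over all windows. For Acaca and Acacb the window belongs to a start that lies 65803 and 19197 bases inside the gene record, so it is not the first promoter of either gene, and neither is printed. The Fasn window starts from a transcript 619 bases inside its record. A match is a description of letters and not of a bound site.

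**Figure D1:**
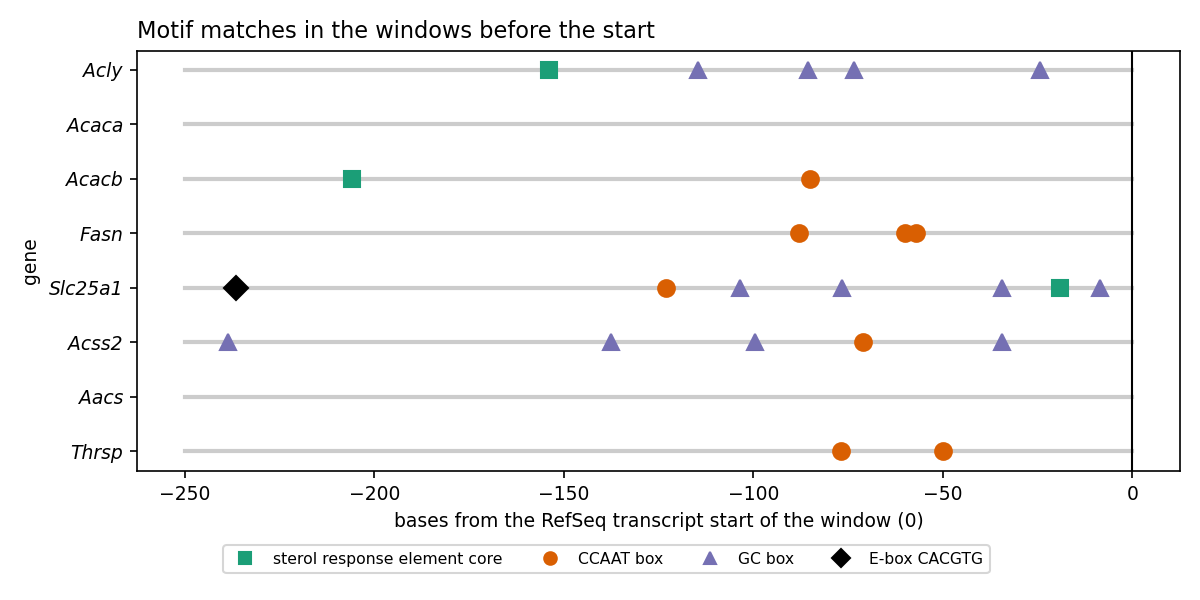
Motif matches before the transcript start of each gene. The horizontal axis is the distance in bases from the RefSeq start, each grey line is a window of 250 bases, and each symbol is the centre of a match on either strand. The sterol response element core is in 3 of the 8 windows and the CCAAT box in 5, and the windows of Acaca and Aacs hold none of the 4 motifs drawn.

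Most probes of an Agilent array lie within 1 exon, but 4 of the member probes span an intron in the design's own coordinates, so that they match spliced RNA of the carboxylase genes and not the gene itself. Their sequences are shown since they cover splice junctions. The brightest Acaca probe, which was designed on the clone BC023946, and the brightest Acacb probe do not span an intron. Positions, as given by the array design, refer to mouse build mm7, and all 4 lie on the plus strand.
Acaca A_51_P439426, chr11:84411918-84415918: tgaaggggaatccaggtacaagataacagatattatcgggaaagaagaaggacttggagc
Acaca A_52_P23177, chr11:84363852-84364855: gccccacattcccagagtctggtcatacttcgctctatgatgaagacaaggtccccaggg
Acaca A_52_P595124, chr11:84350405-84362820: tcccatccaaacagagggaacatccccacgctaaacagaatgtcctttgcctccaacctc
Acacb A_52_P340167, chr5:113406086-113410171: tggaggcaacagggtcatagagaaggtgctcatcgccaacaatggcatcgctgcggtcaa

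The share of spots well above background was 71.2% to 82.0%, and Pearson correlations between arrays were 0.966 to 0.987. The 75th percentile of the signal, to which each array was scaled, was 656 to 897 on hNAG-1 arrays and 957 to 1028 on WT arrays. Slide and genotype were partly confounded: hNAG-1 replicates 2 and 3 had a slide of their own, and the slide of the WT arrays also held hNAG-1 replicate 1. Genes of other tissues set single arrays apart in both genotypes. The summed signal of exocrine pancreas markers was 1.31 to 1.51 times the 75th percentile on hNAG-1 arrays, against 0.902 to 8.66 times on WT arrays, and that of liver markers 77.8 to 103 times, against 75.1 to 262 times, with WT replicate 2 the highest in both. Skeletal muscle markers summed to 57.3 to 345 times on hNAG-1 arrays and 45.6 to 213 times on WT arrays, with hNAG-1 replicate 2 the highest. Except on WT replicate 2, the liver sums came mostly from Cyp2e1, with log2 signals of 5.87 to 6.49 over the 6 arrays. The liver gene Alb had log2 signals of 0.40, 5.16 and 0.97 on hNAG-1 arrays and 2.35, 7.17 and 3.68 on WT arrays. As a check of the female labels, Xist was well above background on the 6 arrays, whereas Uty, Kdm5d, Eif2s3y and Ddx3y of the Y chromosome were on none. The mouse Gdf15 probe cannot check the human transgene.

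All 8 genes of fatty acid synthesis had higher signals in hNAG-1 WAT than in WT WAT, which held for 60.2% of all probes tested. With the brightest probe of each gene, the log2 fold changes were 0.47 for Fasn and 1.38 to 1.98 for the other 7, and in each gene the 3 hNAG-1 arrays lay above the 3 WT arrays. The median over the 8 genes was 1.52, against 0.07 over all 31456 probes tested. All 8 had an unadjusted p under 0.05 in limma, a share to be read against 9.24% of all probes that were higher at that level, and all 8 had the hNAG-1 arrays above the WT arrays, against 14.4% of all probes. A log2 fold change of at least 1 was reached by 7 of the 8 genes and by 2.02% of all probes. None passed an adjusted p of 0.05 in limma, and neither did any other probe of the array (0% of 31456), the smallest adjusted p being 0.150; at an unadjusted p under 0.05, 2908 probes were higher and 1137 lower (3.61%), and 6.03% of probes had all hNAG-1 arrays below all WT arrays. The adjusted p of the 8 genes ran from 0.150 to 0.263. When the variances were modelled with an intensity trend and robustly, 7 of the 8 genes passed, with adjusted p of 0.0126 to 0.0421, and Fasn was at 0.105, while 220 probes were higher and 50 lower over the array. Since the pools hold different mice, the p-values are set against the variation from pool to pool. A larger share of fat cells and more of these RNAs per fat cell cannot be told apart in whole tissue.

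**Figure D2:**
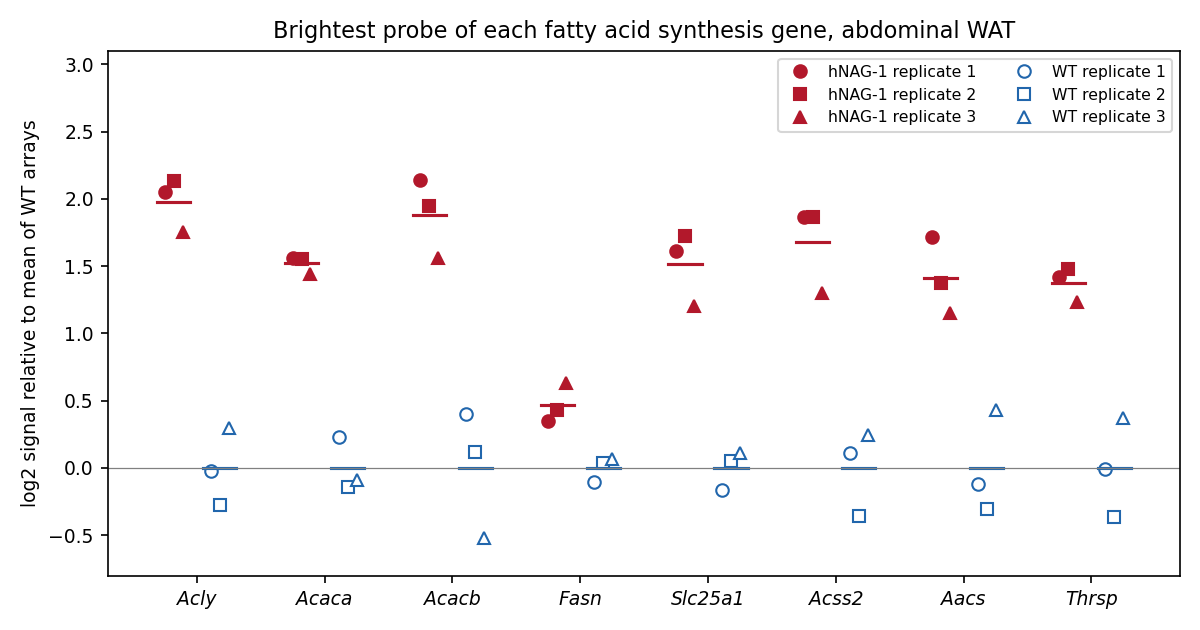
Signal of the brightest probe of each gene on every array. The vertical axis is the log2 signal minus the WT mean, each point is a pool of 2 mice, filled for hNAG-1 and open for WT, and bars are means of 3 arrays. In every gene the 3 hNAG-1 points lie above the 3 WT points, with the smallest gap in Fasn.

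The citrate carrier gene Slc25a1 had log2 signals, relative to the 75th percentile of each array, of 6.08, 6.19 and 5.67 on hNAG-1 arrays and 4.30, 4.52 and 4.58 on WT arrays. The lowest hNAG-1 array was thus above the highest WT array, and the log2 fold change was 1.51 (SE 0.175), or 2.86-fold (adjusted p = 0.150, limma). Acly, whose enzyme splits the exported citrate, was at 6.11, 6.19 and 5.81 on hNAG-1 arrays and 4.04, 3.79 and 4.36 on WT arrays. The groups did not overlap, and the change was 1.98 (SE 0.191), or 3.94-fold, and 35 of the 31456 probes had a larger one (adjusted p = 0.150, limma). A second Acly probe, designed on the cDNA clone AK043466 and dim, was at -4.52, -4.56 and -5.37 on hNAG-1 arrays and -7.02, -5.77 and -5.79 on WT arrays, a change of 1.37 (SE 0.421). With normexp background correction that dim probe had a log2 fold change of -0.33, the only one of the 16 member probes below 0 under that correction.

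Acss2, which makes acetyl-CoA from acetate, was at 6.25, 6.25 and 5.69 on hNAG-1 arrays and 4.50, 4.03 and 4.63 on WT arrays with its brightest probe. The groups did not overlap, and the change was 1.68 (SE 0.236; adjusted p = 0.150, limma). The other tested Acss2 probes gave 1.89 (SE 0.168) and 1.47 (SE 0.243), and neither differed from the brightest beyond the spread between arrays. With normexp these were at 1.98 and 0.45, the second with an unadjusted p of 0.471 in limma, and the brightest was at 1.86. Another Acss2 probe, designed on the cDNA clone AK085932, was not tested, as it was well above background on 1 of 6 arrays. Aacs, the acetoacetyl-CoA synthetase gene, was at 6.58, 6.24 and 6.02 on hNAG-1 arrays and 4.75, 4.56 and 5.30 on WT arrays. WT replicate 3 was the highest WT array here and still below every hNAG-1 array, and the change was 1.41 (SE 0.246; adjusted p = 0.178, limma).

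Acaca, the cytosolic acetyl-CoA carboxylase gene, was at 4.77, 4.76 and 4.65 on hNAG-1 arrays and 3.43, 3.07 and 3.12 on WT arrays with its brightest probe. The hNAG-1 arrays lay close together (SD 0.07, against 0.20 for WT arrays) and did not overlap the WT arrays, and the change was 1.52 (SE 0.137; adjusted p = 0.150, limma). The 3 intron-spanning Acaca probes printed above gave 1.40 (SE 0.179), 1.61 (SE 0.179) and 1.60 (SE 0.176). The brightest probe minus each of these was within the spread between arrays, with 95% intervals of -0.16 to 0.40, -0.32 to 0.14 and -0.41 to 0.24, so no difference was detectable at this scaling. With normexp the brightest probe was at 1.65 and these 3 at 0.99, 1.08 and 0.65, the last with an unadjusted p of 0.260 in limma.

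Acacb, the gene of the mitochondrial carboxylase, was at 5.95, 5.75 and 5.37 on hNAG-1 arrays and 4.21, 3.92 and 3.29 on WT arrays with its brightest probe. Among the brightest probes it had the largest spread within WT, with WT replicate 3 the lowest, and the change was 1.88 (SE 0.281; adjusted p = 0.156, limma). Its intron-spanning probe, with the sequence printed above, was at -3.30, -2.53 and -2.98 on hNAG-1 arrays and -3.70, -3.66 and -4.70 on WT arrays. Its log2 fold change was 1.08 (SE 0.351), with no overlap between genotypes, but it was 0.17 with normexp (unadjusted p = 0.816, limma) and 0.72 with slide as a block or within the slide (unadjusted p = 0.203 and 0.229, limma). The difference of 0.80 between the brightest and this probe had a 95% interval of -0.14 to 1.74 (exact permutation p = 0.1, the smallest that 3 against 3 arrays allow, two-sided). The log2 ratio of the brightest Acaca to the brightest Acacb probe differed by -0.36 between genotypes, with an interval of -1.07 to 0.34, so a shift between the carboxylases was not detectable with these arrays.

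Fasn gave different values with its 2 probes. The brightest was at 9.12, 9.20 and 9.40 on hNAG-1 arrays and 8.66, 8.81 and 8.84 on WT arrays, a change of 0.47 (SE 0.125; adjusted p = 0.263, limma). The second was at 6.24, 6.34 and 6.08 on hNAG-1 arrays and 4.67, 4.56 and 5.19 on WT arrays, a change of 1.42 (SE 0.195; adjusted p = 0.150, limma). On both probes the hNAG-1 arrays lay above the WT arrays. The change of the brightest probe minus that of the second was -0.95 (95% interval -1.58 to -0.31, exact permutation p = 0.1, the smallest possible, two-sided; 0.4 after Benjamini-Hochberg adjustment over 8 such probe pairs). The brightest probe was read at 74.9%, 66.3% and 67.5% of the scanner's saturation value on hNAG-1 arrays and at 62.7%, 64.4% and 67.8% on WT arrays, while the other 16 member probes reached at most 39.4%. No member spot had a saturated pixel. Both Fasn probes were flagged on every array as taken from a scan at low detector gain. For the brightest probes of Acly, Acaca, Acacb and Acss2 that flag was set on some arrays and not on others. The part of this difference in their changes was not tested. Before scaling, the brightest Fasn probe had signals of 498286, 434748 and 443064 on hNAG-1 arrays and 417190, 428495 and 451998 on WT arrays, which overlap, so its unscaled change was 0.08. The second probe had 67938, 59841 and 44470 on hNAG-1 arrays and 26199, 22504 and 35958 on WT arrays, which do not. Over the 20 brightest probes of the array the median change was 0.32 scaled and -0.06 unscaled. The part of the scanner's range in the lower value of the brightest Fasn probe was not tested.

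**Figure D3:**
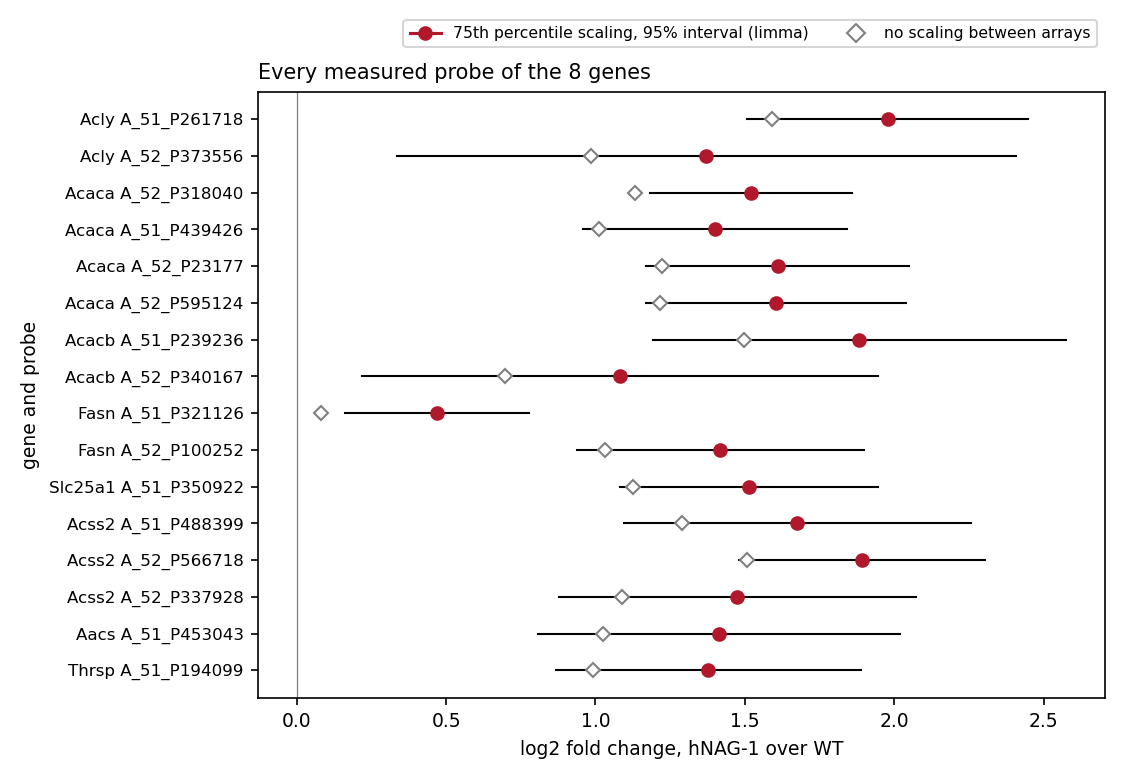
Change of every tested probe of the 8 genes. The horizontal axis is the log2 fold change of hNAG-1 over WT, filled points with lines are values scaled to the 75th percentile with their 95% intervals in limma, and open diamonds are the same probes with no scaling between arrays. At the 75th percentile scaling all 16 intervals lie above 0, and the brightest Fasn probe is the lowest on both scales, at 0.47 and 0.08.

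Thrsp, whose nuclear and cytosolic protein is induced with lipogenesis and by thyroid hormone, was at 8.19, 8.25 and 8.01 on hNAG-1 arrays and 6.76, 6.41 and 7.15 on WT arrays. The arrays of the genotypes did not overlap, and the change was 1.38 (SE 0.208), or 2.60-fold (adjusted p = 0.157, limma). Its paralog Mid1ip1, whose protein in mice promotes polymerization of acetyl-CoA carboxylase, was at 4.73, 4.76 and 4.56 on hNAG-1 arrays and 2.97, 2.96 and 3.90 on WT arrays, a change of 1.41 (SE 0.277; adjusted p = 0.202, limma).

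**Figure D4:**
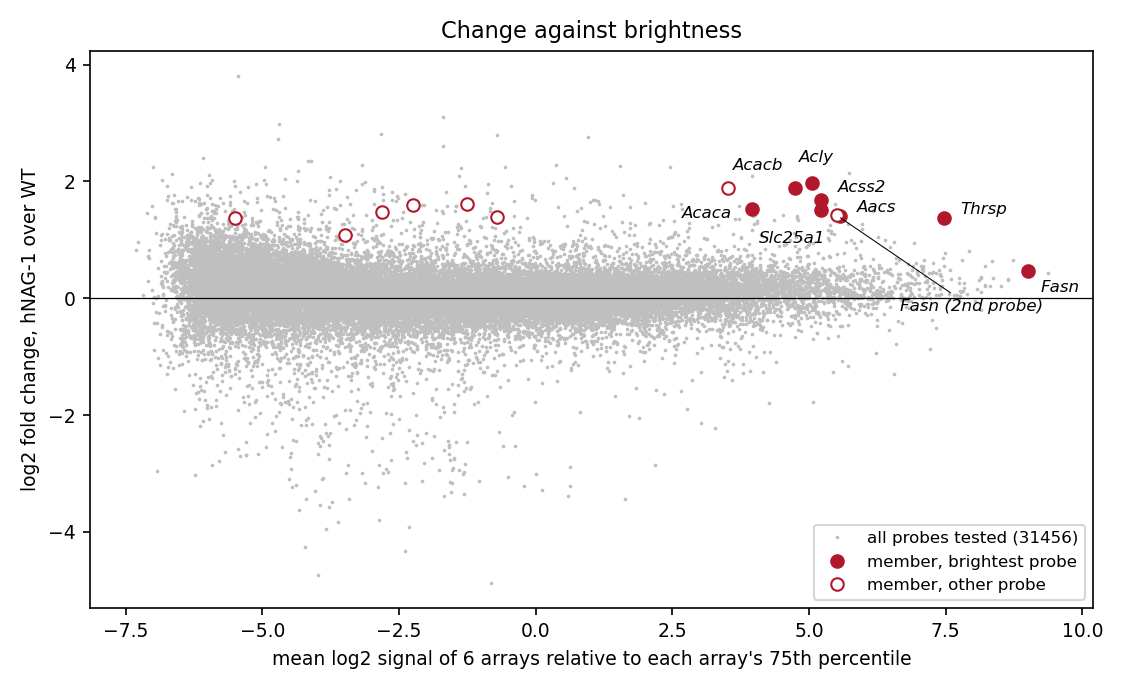
Change against brightness over the array. The horizontal axis is the mean log2 signal of 6 arrays relative to each array's 75th percentile, the vertical axis is the log2 fold change of hNAG-1 over WT, grey points are the 31456 probes tested, and red points are the 16 member probes, filled for the brightest of each gene. At the 75th percentile scaling the member probes, dim and bright, are at 1.08 to 1.98, except the brightest Fasn probe, which is at 0.47 near the bright end.

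The members were set against each other by the ratio of their brightest probes within each array, in 28 pairs. The ratio did not overlap between genotypes in 11 pairs, each at the smallest exact permutation p of 0.1 (two-sided; 0.255 after Benjamini-Hochberg adjustment over the 28 pairs). In 7 of these the change of Fasn was smaller than that of the other member, and the difference ran in size from -0.91 (Fasn minus Thrsp) to 1.51 (Acly minus Fasn). When the second Fasn probe took its place, 1 of 7 ratios was without overlap, that of Acly, and Thrsp minus Fasn was -0.04 (95% interval -0.23 to 0.15). In the other 4 pairs the change of Acly was larger than that of Thrsp, Aacs, Slc25a1 and Acss2. The difference was 0.60 (95% interval 0.42 to 0.78) from Thrsp, 0.56 (0.17 to 0.96) from Aacs, 0.46 (-0.01 to 0.94) from Slc25a1 and 0.30 (0.02 to 0.59) from Acss2. These are t intervals, not adjusted over the pairs. An interval without 0 goes beyond what the permutation test, with its smallest p of 0.1, can show. The remaining pairs overlapped, and their intervals reached up to 1.80, so unlike changes of that size could have been missed.

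Most of the genes, though not all, also varied together among arrays of 1 genotype. Of the 8 genes, 7 were lowest among hNAG-1 arrays in replicate 3, the exception being Fasn, and 5 were lowest among WT arrays in replicate 2. WT replicate 3 was the highest WT array in 6 genes, and Acaca and Acacb were the 2 others, with WT replicate 1 the highest. Acacb ran the other way from those 6 genes, with WT replicate 3 its lowest WT array. The mean of the 8 genes, each centred on its mean of 6 arrays, was 0.85, 0.82 and 0.54 on hNAG-1 arrays and -0.70, -0.89 and -0.63 on WT arrays. These points share their array and its scaling, and are given as a description.

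Other treatments of slide and scale took Fasn past an unadjusted p of 0.05 in limma, and none of the 7 other genes. Within the slide that held both genotypes, where hNAG-1 replicate 1 stood against the 3 WT arrays, the log2 fold changes were 2.05 for Acly, 1.56 for Acaca, 2.14 for Acacb, 0.35 for Fasn, 1.61 for Slc25a1, 1.87 for Acss2, 1.72 for Aacs and 1.42 for Thrsp, with a lone hNAG-1 array taken to vary like the WT arrays. Slide as a block had to give the same values, as the other slide held no WT array, so these too rest on hNAG-1 replicate 1. The adjusted p in limma with that block were 0.541 to 0.680. In both settings Fasn had an unadjusted p over 0.05 (0.143 and 0.104). Other scalings moved the median of all probes from the 0.07 above to 0.01 with quantile normalization, -0.25 with normexp and -0.32 with no scaling. Relative to the median of all probes, the median of the 8 genes was 1.45, and it was 1.35 with quantile normalization, 1.94 with normexp and 1.68 within the slide. Leaving out the scaling cannot change this relative value, because the scaling takes the same amount off every probe of an array. On that relative scale the brightest Fasn probe was at 0.40, and at 0.10 with quantile normalization. Without WT replicate 2 the median of the 8 genes was 1.47, with adjusted p of 0.413 to 0.485 in limma.

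Of the other genes of the pathway, those that supply carbon and NADPH and those that elongate and desaturate palmitate leaned the same way, with medians below that of the members, though single genes such as Elovl6 reached or passed the members' values. No gene of these lists passed the adjusted threshold in limma. Counts in these lists are to be read against all probes tested, of which 60.2% were above 0. At an unadjusted p under 0.05 in limma, 9.24% of all probes were higher and 3.61% lower. In the list of carbon and NADPH supply 16 of 17 genes had a log2 fold change above 0, 12 were higher at an unadjusted p under 0.05 and 0 lower, and the median was 0.54. Me1, the cytosolic malic enzyme gene that yields NADPH, was at 6.91, 7.17 and 6.68 on hNAG-1 arrays and 5.65, 5.11 and 5.52 on WT arrays, a change of 1.49 (SE 0.202). Pgd of the pentose phosphate pathway and the pyruvate carboxylase gene Pcx had changes of 0.95 each (SE 0.138 and 0.155), without overlap between genotypes.

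Of 18 genes of elongation and desaturation 15 were above 0, against 60.2% of all probes, and the median was 0.77. At an unadjusted p under 0.05 in limma 11 were higher and 0 lower, against 9.24% and 3.61% of all probes. Elovl6, which elongates palmitate to stearate, had the largest change of that list, 2.15 (SE 0.264), with 6.94, 6.94 and 6.53 on hNAG-1 arrays and 5.06, 4.16 and 4.74 on WT arrays. Hsd17b12 and Tecr, which act in the later steps of each elongation cycle, had changes of 1.04 (SE 0.15) and 0.84 (SE 0.135). The brightest probe of Scd1, a stearoyl-CoA desaturase gene, was at 0.55 (SE 0.115). Its relative Scd2 was at 1.61 (SE 0.431). The dim Scd3 was at 1.63 (SE 0.474), and at -0.23 with normexp. These Scd genes were chosen after their values were seen.

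Of 14 regulators 8 were above 0, against 60.2% of all probes, and the median was 0.10. At an unadjusted p under 0.05 in limma 4 were higher and 0 lower, against 9.24% and 3.61% of all probes. The 4 were Mlxipl (ChREBP) at 1.27 (SE 0.135), Srebf1 at 1.00 (SE 0.197), Insig1, which retains SREBP in the endoplasmic reticulum and is itself an SREBP target, at 1.76 (SE 0.354), and Mlx, the partner of ChREBP, at 0.71 (SE 0.15). Mlx was named after its value was seen, to complete the count. Mlxipl had log2 signals of 4.83, 4.54 and 4.51 on hNAG-1 arrays and 3.35, 3.26 and 3.47 on WT arrays, and Srebf1 had 6.49, 6.45 and 5.87 on hNAG-1 arrays and 5.18, 5.24 and 5.40 on WT arrays. Neither overlapped between genotypes.

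In the list of malonyl-CoA and carboxylase control, 8 of 13 genes were above 0, against 60.2% of all probes, and the median was 0.19. At an unadjusted p under 0.05 in limma 3 were higher and 1 lower, against 9.24% and 3.61% of all probes. The lower one was Cpt1a, the carnitine palmitoyltransferase that malonyl-CoA inhibits, at 1.38, 1.35 and 1.40 on hNAG-1 arrays and 1.82, 1.88 and 1.69 on WT arrays, a change of -0.42 (SE 0.105). Prkag1, a regulatory subunit of AMPK, whose kinase phosphorylates and inhibits both carboxylases, was at 0.34 (SE 0.12).

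Relatives of the members with other uses, such as mitochondrial fatty acid synthesis, ketone use and the other biotin carboxylases, had a median of 0.09. Of the 18 measured of 20, 12 were above 0, against 60.2% of all probes. At an unadjusted p under 0.05 in limma 6 were higher and 0 lower, against 9.24% and 3.61% of all probes. Acat2, the cytosolic thiolase gene that makes acetoacetyl-CoA for sterols, was at 1.65 (SE 0.249), with 2.01, 1.80 and 1.64 on hNAG-1 arrays and -0.22, 0.66 and 0.08 on WT arrays. Mcat of mitochondrial fatty acid synthesis and Pcca of propionyl-CoA carboxylase were at 0.40 (SE 0.106) and 0.41 (SE 0.109). Acss1, the mitochondrial counterpart of Acss2, was at -0.30 (SE 0.15) with overlapping arrays, and was named after its value was seen. The median of the 8 members, 1.52, stood above the medians of the 5 lists, and no test of that difference was made.

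**Figure D5:**
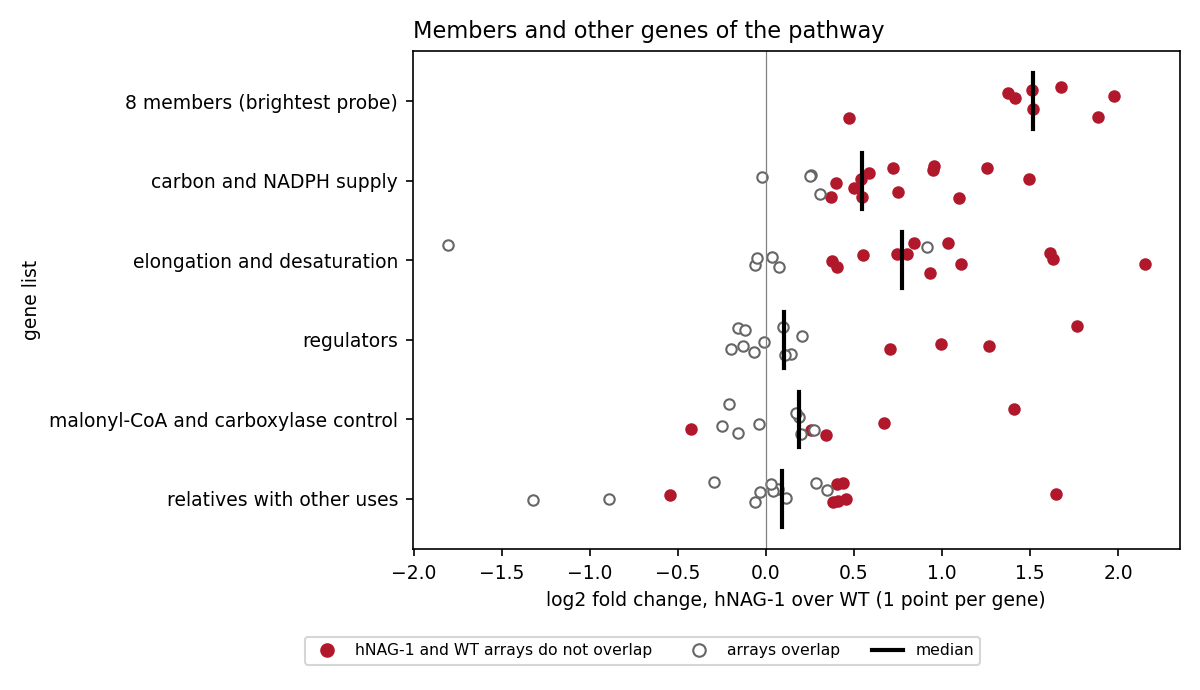
Log2 fold changes of the 8 genes and of 5 lists of related genes. The horizontal axis is the log2 fold change of hNAG-1 over WT, each point is the brightest probe of a gene, filled where the 3 hNAG-1 arrays do not overlap the 3 WT arrays, and black lines are medians. The members have a median of 1.52, elongation and desaturation 0.77, carbon and NADPH supply 0.54, and the other lists 0.09 to 0.19.

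The marker lists of cell types had medians of -0.32 to 0.49, apart from smooth muscle (-1.37), liver (-2.20) and exocrine pancreas (-1.22). Their counts above and below 0 are to be read against all probes tested, of which 60.2% were above 0. Of 8 adipocyte markers 8 were above 0, with a median of 0.27 (0.03 with quantile normalization), and their summed signal was 1877 to 2269 times the 75th percentile on hNAG-1 arrays and 1527 to 1818 times on WT arrays. Set against the mean of these markers on each array, the median of the 8 genes was 1.23, with the 7 genes other than Fasn at 1.09 to 1.69 and Fasn at 0.18. Lymphocyte markers, were above 0 in 8 of 8, with a median of 0.49 that was -0.26 with normexp and 0.0034 within the slide, and sums of 2.13 to 4.10 times on hNAG-1 arrays and 1.48 to 2.57 times on WT arrays. Of the smooth muscle markers 6 of 6 were below 0, with sums of 55.8 to 87.2 times on hNAG-1 arrays and 56.4 to 380 times on WT arrays. Fibroblast markers had a median of -0.32 (5 of 6 below 0; sums 402 to 478 times on hNAG-1 arrays and 440 to 512 times on WT arrays), and macrophage markers one of -0.24 (6 of 7 below 0; sums 118 to 124 times on hNAG-1 arrays and 109 to 141 times on WT arrays). Of the markers of liver, another site of fatty acid synthesis, 5 of 6 were below 0. Lactating mammary gland expresses this pathway as well and lies near some fat depots. Of 10 markers of its epithelium the milk protein genes Csn1s1 and Csn2 and the factor gene Elf5 were well above background on 0 arrays and Csn3 on 1. Of the 6 measured, 4 were above 0, with a median of 0.13. The milk protein genes Wap and Lalba were dim, at 0.75 (SE 0.283) and 0.49 (SE 0.422), and at -0.49 and -0.32 with normexp. The sums were 10.2 to 12.2 times on hNAG-1 arrays and 10.8 to 14.0 times on WT arrays, and came mostly from the keratin genes Krt8 and Krt18. Brown fat markers summed to 68.9 to 103 times on hNAG-1 arrays and 40.3 to 176 times on WT arrays. The part of the adipocyte, lymphocyte, smooth muscle, fibroblast and macrophage shifts in the members' values was not tested.

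The genes whose profile over the 6 arrays was most like the mean of the 8 members were taken from 679 other named genes with a log2 fold change of at least 1 in size. They were Mgst2 (Pearson r = 0.997), Mpc1 (0.995), Pdzk1ip1 (0.995), Kcnj15 (0.992), Eaf2 (0.992) and Cspg4 (0.992). Mpc1, a subunit of the carrier that brings pyruvate into mitochondria, was at 6.67, 6.74 and 6.41 on hNAG-1 arrays and 5.43, 5.09 and 5.49 on WT arrays, a change of 1.27 (SE 0.162). Mgst2, a microsomal glutathione transferase gene, was at 1.34 (SE 0.136), and Pdzk1ip1 had the largest change of the 6, at 2.76 (SE 0.272). With genotype setting most of each profile, these correlations over 6 arrays are a description and carry no test.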

How the data were processed

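The data were single-colour Agilent arrays of abdominal WAT, 3 for hNAG-1 and 3 for WT female mice, each a pool of 2 mice. The authors deposited scanner files from Agilent Feature Extraction, version 9.5 per the submitters' processing notes, in which spot intensity is already corrected for background, together with a value table that repeats this intensity in its 45018 rows. Neither is normalized between arrays. The methods name an Affymetrix array, whereas the deposited files are Agilent.

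After removal of control and outlier spots, repeated spots were averaged, and the processed signal was put on the log2 scale and reduced by the 75th percentile of its array. The filter kept probes that exceeded background clearly on 3 or more of 6 arrays (31456 of 41174, with 37 more dropped for a missing value). The difference between genotypes was fitted in limma 3.58.1 (lmFit, eBayes; R 4.3.3) as a two-sided test, and p-values were adjusted by Benjamini-Hochberg over the 31456 probes (threshold 0.05). Ratios within arrays were compared by exact permutation. The brightest kept probe stands for its gene unless another is named. Scripts were tested on simulated data. The number of arrays limits the precision.

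The members and the gene lists were chosen with earlier results of these data known. Named genes are the 8 members, up to 3 per list by size of the moderated t, and the 6 genes most like the members; others are marked where they appear. Alternatives were quantile and normexp (offset 50) normalization, other filters, the mean of a gene's probes, trended robust variances, Student's t-test on the same values, slide and replicate blocks, each array left out, and, added after seeing the data, the second Fasn probe, scaling to adipocyte markers and no scaling.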

Additional observations from a re-analysis of the deposited data

Results flagged for a closer look

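The Acss2 probe that was designed on the cDNA clone AK085932, and that was too dim for the tests, had a signal well above background on 1 array, hNAG-1 replicate 1, and on none of the WT arrays. Its processed signals were 10.4, 7.85 and 2.72 on hNAG-1 arrays and 3.03, 6.05 and 3.68 on WT arrays, so the genotypes overlapped.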

How the results depend on the processing

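The 8 genes kept a positive log2 fold change under the planned and added alternatives that were run. With trended and robust variances 7 of the 8 passed an adjusted p of 0.05 in limma, against 0 in the fit reported: Acly at 1.98, Acaca at 1.52, Acacb at 1.88, Slc25a1 at 1.51, Acss2 at 1.68, Aacs at 1.41 and Thrsp at 1.38. In no other alternative did a member pass. The median of the 8 genes was 1.13 with no scaling and 1.23 relative to adipocyte markers, both added after seeing the data. The median of all probes, 0.07 in the fit reported, was -0.25 with normexp, -0.0149 with slide as a block or within the slide, -0.32 with no scaling and -0.22 relative to adipocyte markers. Fasn was at 0.11 with quantile normalization and at 0.94 as the mean of its probes. Probes higher and lower at an unadjusted p under 0.05 numbered 434 and 140 with normexp, and 320 and 6362 with no scaling. Leaving out each array in turn gave 1.47 to 1.61 for the median of the 8 genes, and all 8 had an unadjusted p under 0.05 each time. Same-numbered arrays deviated together with correlations of 0.08, 0.49 and 0.08, so the numbers were not taken as pairs. With a replicate block the 8 genes again had an unadjusted p under 0.05, none passed the adjusted threshold in limma, and the log2 fold changes were those above. The dimmest member probes limit what can be said of the Acly clone and of the dropped Acss2 clone.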
